A study of Mus musculus with 25 samples.

Results

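The genes described here are 32 genes of cholesterol and fatty acid synthesis, out of 48440 genes counted in mouse embryonic stem (ES) cells. They were chosen by name: a row of the count table belongs to the set if its Ensembl identifier, read without the version, carries one of the 32 listed symbols, and all 32 were found. By role they comprise 6 genes of the mevalonate pathway, 11 that convert its product through squalene to cholesterol, 5 genes for the SREBP transcription factors and the proteins that hold or release them, 2 for sterol transport and acetoacetyl-CoA synthesis, 4 for fatty acid synthesis and 4 for fatty acid desaturation.

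SREBP proteins are made as membrane-bound precursors. When sterols are scarce, the escort protein SCAP carries them from the endoplasmic reticulum to the Golgi, where they are cut and released to switch on the genes for lipid synthesis; INSIG proteins retain SCAP when sterols are plentiful. The kinase GSK3 marks both β-catenin and the released SREBP fragments for degradation.

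RNA was counted from the 3′ ends of transcripts in 25 bulk libraries of E14 cells, a mouse ES line kept without feeder cells in medium with serum and leukemia inhibitory factor. Unedited E14 cells without a *Ctnnb1* mutation received the GSK3 inhibitor CHIR99021 for 48 h at 0, 2.5, 5, 7.5 or 10 µM, with 2 libraries per dose. The other 15 libraries came from 15 clones with no CHIR99021, 1 library each, in which 1 allele of *Ctnnb1*, the gene for β-catenin, had been replaced by a version with a single amino acid exchange at codon 37, 41 or 45. The clones carried 11 mutations, ranked by the mutational effect score (MES), the study's measure of how strongly a mutation raised a fluorescent β-catenin reporter in other ES cells. The 9 high clones carried S37A, S37C, S37F (2 clones), S37Y, T41A (2 clones) or T41I (2 clones), the 3 medium clones S45F (2 clones) or S45P, and the 3 low clones T41N, S45C or T41S. Unedited cells had not gone through selection and picking of single colonies, so this step and the mutation cannot be told apart in any comparison of clones with unedited cells. Nothing in the labels says that the libraries of a dose were separate cultures, so the p-values measure the spread between libraries, which may be technical. Counts of 3′ ends do not show the mutated codon.

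Libraries held 306157 to 2083398 counts, and a count of 0 allows up to 3 counts, or 1.44 to 9.80 CPM (counts scaled to a library total of 1000000). In 4 CHIR99021 libraries (0 µM replicate 2 and replicate 1 at 2.5, 5 and 10 µM), mitochondrial genes held 0.485% to 0.562% of the counts, against 0.986% to 1.46% in the other 6 and 1.53% to 2.52% in the clones. All 8 markers of pluripotent ES cells were counted in all 25 libraries, and 4 liver genes (*Alb*, *Ttr*, *Apoa1*, *Apob*) summed to at most 2.40 CPM. The β-catenin target *Axin2* rose with the dose, by 0.28 ± 0.03 (SE) on the log2 scale per µM (edgeR quasi-likelihood test, Benjamini-Hochberg adjusted p = 1.26e-07).

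Promoter sequence was available for 25 of the 32 genes, in 33 windows of RefSeq (GRCm38.p6), each read here over the 250 bases before a transcription start. Of the 6 genes with the smallest p-values across the CHIR99021 doses, *Fasn*, *Insig1* and *Srebf1* had a window and are shown. *Scd2*, *Fads1* and *Scd1* had none. Capitals mark the CCAAT box, read as CCAAT or on the other strand as ATTGG, and the E-box CACGTG. The windows lie at chr11:120824548-120824797 on the minus strand for *Fasn*, chr5:28071162-28071411 on the plus strand for *Insig1* and chr11:60210472-60210721 on the minus strand for *Srebf1*, the last being 1 of 3 windows of that gene, all 5′ to 3′ along the gene.
Fasn: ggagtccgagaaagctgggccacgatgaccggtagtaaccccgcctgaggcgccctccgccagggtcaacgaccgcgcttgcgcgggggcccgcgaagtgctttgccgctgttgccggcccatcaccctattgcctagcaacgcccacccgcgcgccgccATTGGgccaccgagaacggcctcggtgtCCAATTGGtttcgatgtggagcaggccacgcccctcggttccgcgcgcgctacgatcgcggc
Insig1: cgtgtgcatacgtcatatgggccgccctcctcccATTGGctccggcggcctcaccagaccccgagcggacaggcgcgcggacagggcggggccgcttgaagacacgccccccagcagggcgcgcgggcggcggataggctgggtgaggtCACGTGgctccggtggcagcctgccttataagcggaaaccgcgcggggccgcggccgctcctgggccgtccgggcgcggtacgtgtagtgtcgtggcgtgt
Srebf1: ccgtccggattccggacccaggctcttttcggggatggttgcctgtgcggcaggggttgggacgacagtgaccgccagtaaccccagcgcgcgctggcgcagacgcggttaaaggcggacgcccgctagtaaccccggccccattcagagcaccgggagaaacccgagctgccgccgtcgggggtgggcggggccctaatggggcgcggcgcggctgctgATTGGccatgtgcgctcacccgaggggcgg
CCAAT, the site of the factor NF-Y, which acts beside SREBP at many of these genes, was found in 20 of the 33 windows (60.6%), against 33.8% of 32851 RefSeq windows of the same length. The *Fasn* window held it at 3 places, 2 of which overlap in CCAATTGG. Of the *Srebf1* windows not shown, that at chr11:60222582-60222831 held CCAAT and that at chr11:60220628-60220877 held none of the motifs searched. CACGTG was found in 5 windows (15.2%, against 6.02%), those of *Insig1*, *Sc5d*, *Scap*, *Dhcr7* and *Hsd17b7*. The sterol regulatory element TCACNCCAC was found in 1 window (3.03%, against 1.05%), as TCACCCCAC before *Hmgcs1*, which encodes the synthase that makes HMG-CoA. The TCF/LEF core CTTTGAT was found in 0 of the 33 and in 3.21% of all windows. Both strands were searched, and a match is a description of these letters, not of a bound site.

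Across the 5 doses of CHIR99021, which asks how the genes follow graded GSK3 inhibition, the 3 tested fatty acid desaturase genes all rose: *Scd2* reached 2.03 times its starting level between 0 and 10 µM along the fitted line, and *Fads1* and *Scd1* reached 1.81 and 1.67 times theirs. *Fasn*, *Srebf1*, *Scap* and *Sc5d* also rose, and *Insig1* fell. Of the 29 members with enough counts to be tested, 7 rose and 1 fell (8 called, 27.6%). Over all 10033 genes tested, 12.5% were called, 5.89% as higher and 6.63% as lower. The median slope over the members was 0.032 on the log2 scale per µM, against 0.00084 over all genes tested (edgeR quasi-likelihood test on the dose in µM, Benjamini-Hochberg adjustment over all genes tested, threshold 0.05). Changes in the following are log2 fold changes from 0 to 10 µM along the fitted line, with their SE.

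*Scd2*, 1 of the paralogous stearoyl-CoA desaturases that make monounsaturated fatty acids, held 292 and 329 CPM at 0 µM, 417 and 422 at 2.5 µM, 494 and 552 at 5 µM, 595 and 614 at 7.5 µM and 594 and 633 at 10 µM. *Scd2* changed by 1.02 ± 0.13 (edgeR adjusted p = 1.90e-06). Every treated library lay above both untreated libraries, and each dose up to 7.5 µM lay wholly above the one before it. The rise passed the threshold under every alternative tried, and without both 0 µM libraries its slope was 0.07 ± 0.02 per µM (adjusted p = 0.0113). *Fads1*, the delta-5 desaturase of long polyunsaturated fatty acids, held 60.9 and 59.5 CPM at 0 µM, 64.7 and 76.99 at 2.5 µM, 75.7 and 92.6 at 5 µM, 101 and 106 at 7.5 µM and 94.7 and 108 at 10 µM. *Fads1* changed by 0.86 ± 0.16 (edgeR adjusted p = 2.69e-04). Its treated libraries were again all above the untreated ones. How many of all genes separate in this way was not counted, here and for the genes below. *Scd1* held 61.4 and 52.1 CPM at 0 µM, 61.8 and 70.9 at 2.5 µM, 52.6 and 76.8 at 5 µM, 87.1 and 99.7 at 7.5 µM and 88.2 and 91.1 at 10 µM. *Scd1* changed by 0.74 ± 0.17 (edgeR adjusted p = 0.00354). Here the library at 5 µM with the lower mitochondrial share stood at the untreated level, and the 4 libraries at 7.5 and 10 µM lay above all others. Without both untreated libraries, *Fads1* and *Scd1* did not pass the threshold (adjusted p = 0.131 and 0.217), with slopes of 0.07 ± 0.02 per µM for both, against 0.09 ± 0.02 and 0.07 ± 0.02 with them. *Fads2*, the delta-6 desaturase, was counted at 0 to 5.80 CPM, too low to be tested.

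**Figure D1:**
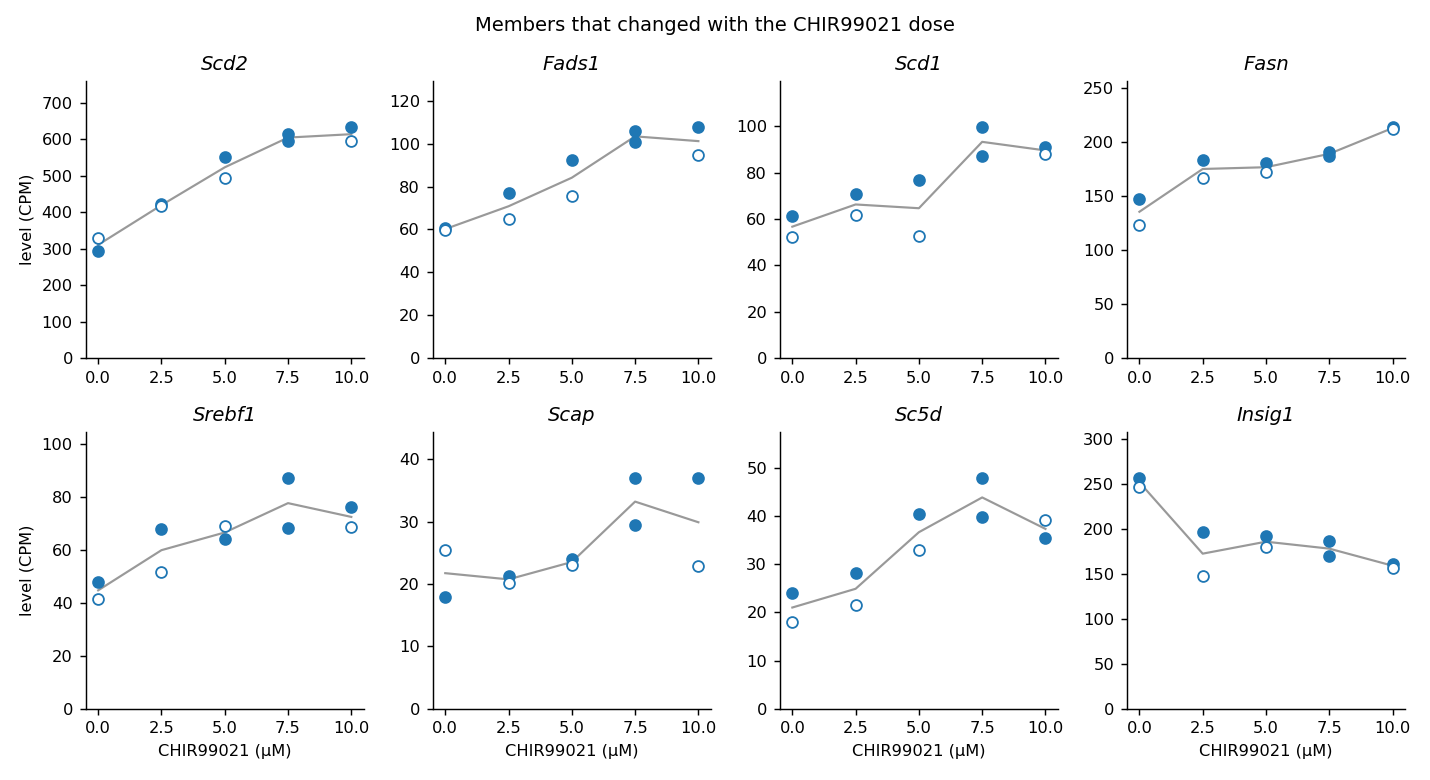
Level in CPM (vertical axes from 0) of the 8 called members against the CHIR99021 dose (µM), 1 point per library, with a line through the mean of the 2 libraries at each dose. Open points are the 4 libraries with under 0.8% of counts on mitochondrial genes. Scd2 climbs from 292 and 329 CPM at 0 µM to 594 and 633 CPM at 10 µM, while Insig1 drops between 0 and 2.5 µM.

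Of the 4 genes of fatty acid synthesis, *Fasn* rose. *Fasn*, the fatty acid synthase, held 148 and 123 CPM at 0 µM, 167 and 184 at 2.5 µM, 173 and 181 at 5 µM, 187 and 191 at 7.5 µM and 212 and 214 at 10 µM. *Fasn* changed by 0.55 ± 0.13 (edgeR adjusted p = 0.00425). All treated libraries lay above the untreated ones, and the 2 libraries at 10 µM above all others. The other genes of the group did not pass the test: *Acly*, which makes cytosolic acetyl-CoA from citrate, had a value of -0.26 ± 0.14, *Acaca*, the acetyl-CoA carboxylase, -0.04 ± 0.24, and *Elovl6*, the elongase of palmitate, 0.15 ± 0.13.

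Among the SREBP factors and their regulators, 3 of 5 were called, in both directions, beside 12.5% of all genes tested. From a count this small nothing is read about the group. *Srebf1*, which encodes SREBP1, the factor named for fatty acid synthesis, held 47.8 and 41.5 CPM at 0 µM, 51.7 and 67.8 at 2.5 µM, 69.1 and 63.8 at 5 µM, 87.1 and 68.00 at 7.5 µM and 68.6 and 76.1 at 10 µM. *Srebf1* changed by 0.72 ± 0.18 (edgeR adjusted p = 0.00767). Every treated library lay above both untreated ones, and the libraries at 7.5 and 10 µM overlapped. *Scap* held 17.9 and 25.5 CPM at 0 µM, 20.1 and 21.3 at 2.5 µM, 23.03 and 24.00 at 5 µM, 37.00 and 29.4 at 7.5 µM and 22.9 and 36.9 at 10 µM. *Scap* changed by 0.84 ± 0.25 (edgeR adjusted p = 0.025). The pair of libraries at each end overlapped, since 10 µM replicate 1, the shallowest library, stood at 22.9 CPM, and *Scap* did not pass without 7.5 µM replicate 1, without 10 µM replicate 2 or without 0 µM replicate 1 (in the last case a slope of 0.073 ± 0.03 per µM, against 0.084 ± 0.03 with it, adjusted p = 0.189). The *Scap* call was lost under 6 of 19 alternatives, which also include DESeq2, dose as a factor and the fit without both untreated libraries. *Scap* also shares 985 of its 7443 exonic bases with the antisense gene 5830462I19Rik, and without a stated strand setting the 2 cannot be told apart. Exons shared with another annotated gene were also found for *Srebf1*, *Scd2*, *Elovl6*, *Hmgcs1*, *Idi1*, *Fdps*, *Fdft1*, *Lss*, *Cyp51* and *Tm7sf2* (34 to 1124 bases), and counts of the paralogs *Scd1* and *Scd2* could be split by reads common to both.

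*Insig1*, itself a classical SREBP target, moved the other way: it held 257 and 247 CPM at 0 µM, 148 and 197 at 2.5 µM, 179 and 192 at 5 µM, 169.8 and 186 at 7.5 µM and 157 and 161 at 10 µM. *Insig1* changed by -0.55 ± 0.14 (edgeR adjusted p = 0.00718). Both untreated libraries lay above all treated ones, and the fall lay between 0 and 2.5 µM: without the untreated libraries the slope was -0.02 ± 0.02 per µM (adjusted p = 0.781). *Insig2* held 26.1 and 28.7 CPM at 0 µM, 30.2 and 37.4 at 2.5 µM, 52.6 and 48.5 at 5 µM, 39.2 and 49.6 at 7.5 µM and 29.4 and 36.1 at 10 µM, and *Srebf2*, which encodes SREBP2, the factor named for cholesterol synthesis, held 171 and 157 CPM at 0 µM, 154 and 165 at 2.5 µM, 146 and 167 at 5 µM, 185 and 183 at 7.5 µM and 193 and 178 at 10 µM. Neither passed the test (*Insig2* 0.51 ± 0.25, adjusted p = 0.197; *Srebf2* 0.20 ± 0.12, adjusted p = 0.322).

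Of the genes that build cholesterol, 0 of 5 tested in the mevalonate pathway and 1 of 10 tested from squalene on passed the test with the dose, beside 12.5% of all genes tested, and from counts this small nothing is read about the branch. Of the mevalonate genes, 1 had an unadjusted p under 0.05, and DESeq2 also called 0; their changes ran from -0.53 ± 0.25 for *Mvk*, the mevalonate kinase, to 0.28 ± 0.23 for *Fdps*, the farnesyl diphosphate synthase. The gene that rose, *Sc5d*, the sterol C5-desaturase, held 23.9 and 18.1 CPM at 0 µM, 21.6 and 28.2 at 2.5 µM, 32.9 and 40.3 at 5 µM, 47.9 and 39.8 at 7.5 µM and 39.2 and 35.4 at 10 µM. *Sc5d* changed by 0.94 ± 0.25 (edgeR adjusted p = 0.00939). The 6 libraries from 5 µM on all lay above the untreated ones. The remaining 9 of that group ran from -0.12 ± 0.17 for *Fdft1*, the squalene synthase, to 0.67 ± 0.27 for *Ebp*, the sterol isomerase (smallest adjusted p 0.0968), with *Nsdhl*, a dehydrogenase of sterol demethylation, at 0.59 ± 0.25. *Stard4*, a carrier of cholesterol within the cell, and *Acat2*, which condenses acetyl-CoA to acetoacetyl-CoA, had changes of 0.40 ± 0.18 and 0.42 ± 0.17 and did not pass (adjusted p = 0.156 and 0.116). *Idi1*, the isomerase of isoprene units, and *Hsd17b7*, a sterol reductase, had too few counts to be tested.

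**Figure D2:**
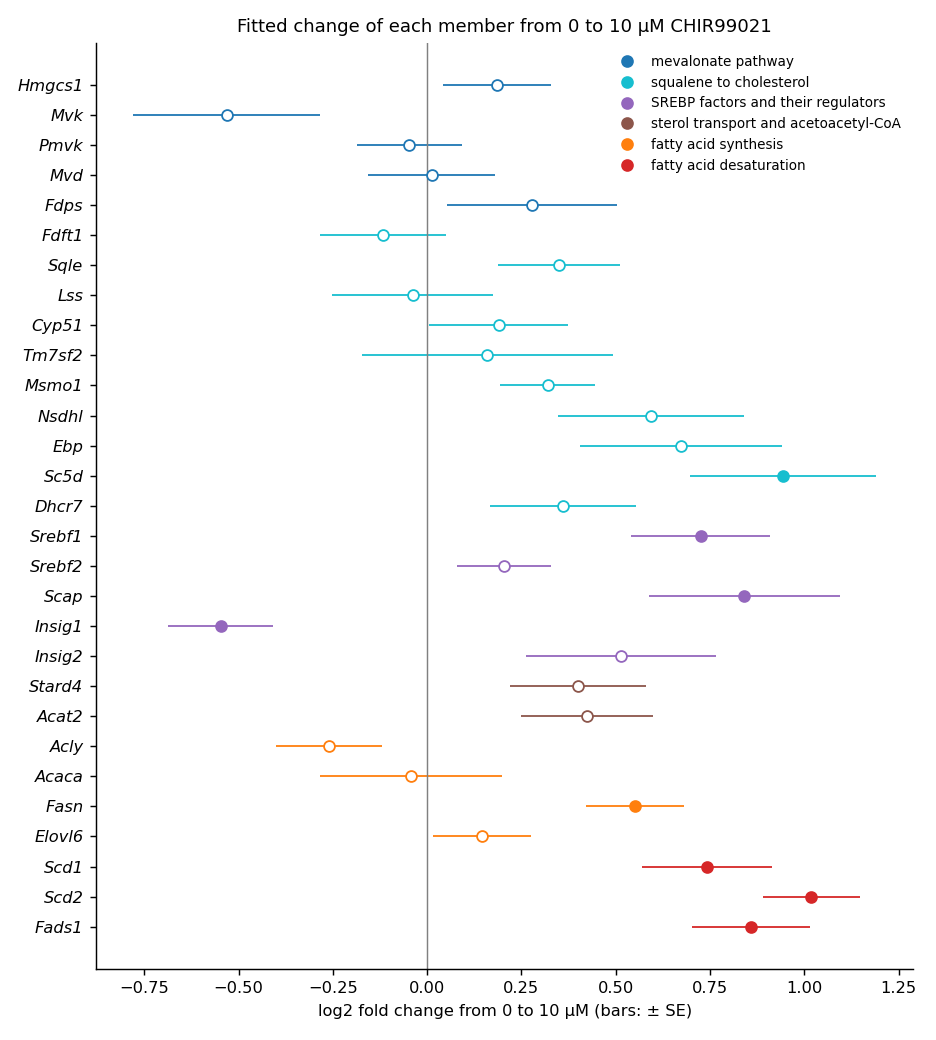
Fitted log2 fold change from 0 to 10 µM CHIR99021 (horizontal axis, bars ± SE) for the 29 tested members, coloured by role and ordered along the pathway. Filled points passed an adjusted p of 0.05: the 3 desaturases, Fasn, Srebf1, Scap and Sc5d lie to the right of 0 and Insig1 to the left, while the 5 mevalonate genes straddle 0.

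Several markers moved with the dose. From the untreated libraries to those at 10 µM, the summed level of 8 pluripotency markers went from 4432 and 4476 CPM to 3388 and 3655 CPM, that of 6 primitive streak markers from 20.1 and 25.5 to 148 and 163 CPM, that of 8 primitive endoderm markers from 114 and 120.1 to 247 and 261 CPM, and that of 5 neural markers from 75.6 and 81.9 to 32.4 and 39.2 CPM. Of the tested markers, 1 rose and 5 fell of 8 for pluripotency, 2 of 4 rose for the streak, 2 of 2 rose for primitive endoderm and 1 of 2 fell for neural cells. Fibroblast markers summed to 22.3 and 33.2 CPM at 0 µM, 83.3 and 89.95 CPM at 2.5 µM and 28.6 and 35.9 CPM at 10 µM. In bulk RNA, fewer cells of a type and less RNA per cell cannot be told apart, and the part of these markers in the results was not tested. Within the 6 libraries with the higher mitochondrial share, *Scd2*, *Fads1*, *Scd1*, *Scap* and *Insig1* kept slopes of 0.11, 0.08, 0.07, 0.11 and -0.06 per µM and passed, *Fasn* just passed (adjusted p = 0.0497), and *Srebf1* (0.06 per µM, adjusted p = 0.0531) and *Sc5d* (0.08 per µM, adjusted p = 0.096) did not. *Srebf1*, *Sc5d* and *Insig1* each also missed the threshold without 0 µM replicate 1 (adjusted p = 0.0824, 0.0689 and 0.116) and without 0 µM replicate 2 (0.0518, 0.0572 and 0.0541). Their slopes per µM moved little: without 1 or the other library they were 0.065 and 0.063 for *Srebf1* (0.072 with both), 0.092 and 0.082 for *Sc5d* (0.094) and -0.044 and -0.048 for *Insig1* (-0.055). Without both untreated libraries *Scd2* was the 1 member that passed.

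Neighbouring genes of lipid handling that are no members were counted in the same fit, where 12.5% of all genes tested were called. The called share was 15.8% for further synthesis and uptake, near that of all genes. It was 40% for LXR response, efflux, esterification and lysosomal export, from few genes. Of 19 tested genes of further synthesis and uptake, 3 rose and 0 fell: *Me1*, the malic enzyme that supplies NADPH (0.12 ± 0.02 per µM on the log2 scale), *Acsl3*, which activates fatty acids (0.08 ± 0.02), and *Pdss1*, which makes the ubiquinone side chain (0.10 ± 0.03). Of 10 tested genes of LXR response, efflux, esterification and lysosomal export, *Lpcat3* (0.11 ± 0.02), *Npc2* (0.09 ± 0.01) and *Soat1* (0.07 ± 0.01) rose, and the sterol exporter *Abcg1* fell (-0.16 ± 0.03). Of 12 genes for SREBP processing, SREBP turnover and GSK3, 0 passed the edgeR test, 4 had an unadjusted p under 0.05, and DESeq2 also called 0.

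Across the 15 clones, which asks how the same genes follow the strength of the β-catenin mutation, 5 of the 31 tested members were called (16.1%), against 22.9% of all 10145 genes tested. *Insig1*, the SREBP retainer that fell with the inhibitor, and *Elovl6*, the elongase of palmitate, were higher in clones with a higher MES, and *Scap*, *Acaca* and *Scd2* were lower (9.91% of all genes were called higher and 13% lower). The median slope of the members was 0.021 on the log2 scale per 10000 MES units, against 0.0025 over all genes tested (edgeR quasi-likelihood test on MES, Benjamini-Hochberg adjustment). Between the high and the low clones, 8 of 31 members were called (25.8%; 29.8% of all 10452 genes, 13.1% higher and 16.6% lower): these 5 again, with *Pmvk* higher and *Sc5d* and *Fasn* lower in the high clones. The members' share was below that of all genes in both comparisons. The 26 members without an MES call had slopes from -0.28 for *Hsd17b7* to 0.25 for *Ebp* (smallest adjusted p 0.0749).

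*Insig1* held 89.3 CPM in T41S, 98.1 in S45C and 72.6 in T41N, 105 and 119 CPM in S45F and 74.5 in S45P, and 98.5 to 159 CPM (median 148) in the 9 high clones. The high clones all lay above the 3 low clones. *Insig1* differed by 0.71 ± 0.16 (edgeR adjusted p = 0.002) and had an MES slope of 0.32 ± 0.08 per 10000 units. *Elovl6* held 133 CPM in T41S, 125 in S45C and 139 in T41N, 131 and 134 CPM in S45F and 110.5 in S45P, and 175 to 304 CPM (median 199) in the 9 high clones. *Elovl6* differed by 0.69 ± 0.15 (edgeR adjusted p = 0.00116) and had an MES slope of 0.33 ± 0.09 per 10000 units. The high clones did not overlap with any medium or low clone. Such separations, here and for the genes below, are given for genes named because they were called. Their share over all genes was not counted, and 29.8% of all genes were called between high and low clones. With the codon added as a factor, neither the *Insig1* nor the *Elovl6* slope passed the threshold (0.24 ± 0.10, adjusted p = 0.0938, and 0.15 ± 0.10, adjusted p = 0.282); all 3 medium clones carry S45 mutations.

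*Scd2* held 671 CPM in T41S, 315 in S45C and 343 in T41N, 259.8 and 241 CPM in S45F and 317 in S45P, and 240.1 to 337 CPM (median 284) in the 9 high clones. The T41S clone alone stood above all other clones. The difference between high and low clones (log2 fold change -0.67 ± 0.16, adjusted p = 0.00338, edgeR quasi-likelihood test) rested on it, being -0.18, adjusted p = 0.387 without that clone, as did the MES slope of -0.27 ± 0.08 (-0.04, adjusted p = 0.737 without it). In the medium and high clones alone the *Scd2* slope was 0.041 ± 0.09 (adjusted p = 0.914).

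*Scap* held 46.3 CPM in T41S, 40.7 in S45C and 40.4 in T41N, 30.1 and 36.7 CPM in S45F and 34.6 in S45P, and 23.5 to 39.3 CPM (median 27.98) in the 9 high clones. *Scap* differed by -0.51 ± 0.18 (edgeR adjusted p = 0.0353). *Acaca* held 48.6 CPM in T41S, 45.3 in S45C and 30.3 in T41N, 30.8 and 37.6 CPM in S45F and 41.3 in S45P, and 19.8 to 32.03 CPM (median 23.05) in the 9 high clones. *Acaca* differed by -0.80 ± 0.20 (edgeR adjusted p = 0.00382). The high clones lay below the low clones for *Scap* and overlapped with the T41N clone for *Acaca*. The *Scap* difference no longer passed under 11 of 17 alternatives. The MES calls of *Scap* and *Acaca* were lost under 8 and 4 of 24 alternatives, for both genes with the codon as a factor. They were also lost without T41S (edgeR adjusted p = 0.201 and 0.141). The MES slopes were then -0.20 for *Scap* and -0.27 for *Acaca*, against -0.24 and -0.34 with that clone. *Fasn* held 297 CPM in T41S, 327 in S45C and 303 in T41N, 211 and 232 CPM in S45F and 295 in S45P, and 207 to 273 CPM (median 238) in the 9 high clones (log2 fold change -0.36 ± 0.11, adjusted p = 0.0184), with every low clone above every high clone.

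*Sc5d* held 34.5 CPM in T41S, 24.1 in S45C and 30.3 in T41N, 13.2 and 13.8 CPM in S45F and 19.97 in S45P, and 12.6 to 23.2 CPM (median 18.6) in the 9 high clones (log2 fold change -0.77 ± 0.22, adjusted p = 0.0111, edgeR quasi-likelihood test), with the low clones above the high ones. *Pmvk*, the phosphomevalonate kinase, held 72.3 CPM in T41S, 46.8 in S45C and 50.4 in T41N, 68.4 and 79.8 CPM in S45F and 108 in S45P, and 66.1 to 115 CPM (median 96.02) in the 9 high clones (log2 fold change 0.64 ± 0.20, adjusted p = 0.02), where T41S lay within the range of the high clones. Without the T41S clone, 5 members no longer passed between high and low clones, by unequal changes in the difference: *Scd2* went from -0.67 to -0.18, *Acaca* from -0.80 to -0.61, *Sc5d* from -0.77 to -0.57 and *Scap* from -0.51 to -0.39, while *Fasn* stayed at -0.37 (-0.36 with the clone). *Insig1*, *Elovl6* and *Pmvk* passed without it. *Fasn* and *Pmvk* were also lost without S45C or without T41N, and *Fasn* under 5 of 17 alternatives in all, with differences from -0.39 to -0.31. Among the 12 medium and high clones alone, 0 members and 23 genes in all passed the MES test by edgeR; 5 members had an unadjusted p under 0.05.

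The low clones also differed in markers. Their summed pluripotency markers stood at 1823 to 2821 CPM, against 3630 to 4872 CPM in the medium and 4183 to 5471 CPM in the high clones. Their neural markers summed to 125 to 216 CPM and their fibroblast markers to 43.7 to 162 CPM, against 20.1 to 88.4 and 3.88 to 27.7 CPM in the high clones. Their primitive endoderm markers summed to 142 to 355 CPM, against 123 to 968 CPM in the high clones. Between high and low clones 6 of 8 pluripotency markers and 2 of 7 tested primitive endoderm markers (*Gata6* and *Lama1*) were higher, and 3 of 3 tested neural markers and *Col1a1*, the 1 tested fibroblast marker, were lower. The part of these markers in the differences between high and low clones was not tested.

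The clones, which received no inhibitor, were set against the 2 untreated libraries of unedited cells, a reference that the high and the low clones share. The mutation and the selection and picking of colonies cannot be told apart in these comparisons. In the high clones 8 of 31 members were called (25.8%, against 34% of all 11375 genes, 16.1% higher and 17.9% lower), and in the low clones 11 of 31 (35.5%, against 32.6%, 17.1% higher and 15.4% lower). Both classes had lower *Insig1*, *Srebf2*, *Mvd*, *Pmvk* and *Scd1* and higher *Fasn* than untreated cells (edgeR adjusted p at most 0.0296 for each).

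*Insig1* went from 257 and 247 CPM in untreated cells to at most 159 CPM in any clone, a log2 fold change of -0.81 ± 0.14 in the high and -1.55 ± 0.18 in the low clones. *Srebf2* stood at 171 and 157 CPM in untreated cells and at 82.2 to 144 CPM (median 107) in the 9 high clones and 99.4 CPM in T41S, 85.99 in S45C and 84.7 in T41N (-0.56 ± 0.15 in the high and -0.87 ± 0.18 in the low clones). No clone reached the untreated level of either gene. *Fasn* was above its untreated 148 and 123 CPM in every clone (0.81 ± 0.13 in the high and 1.15 ± 0.15 in the low clones), and *Scd1* below its untreated 61.4 and 52.1 CPM in every clone (-0.69 ± 0.21 in the high and -0.96 ± 0.28 in the low clones). *Mvd*, the decarboxylase that ends the mevalonate steps to the isoprene unit, stood at 85.9 and 81.9 CPM in untreated cells, 28.9 to 66.7 CPM (median 47.6) in the 9 high clones and 54.2 CPM in T41S, 39.2 in S45C and 22.2 in T41N (-0.77 ± 0.22 in the high and -1.01 ± 0.28 in the low clones). *Pmvk* stood at 135 and 123 CPM in untreated cells, above all clones (-0.49 ± 0.17 in the high and -1.14 ± 0.22 in the low clones).

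Called in the high clones alone were *Ebp* (log2 fold change 1.03 ± 0.26, adjusted p = 0.00245, edgeR quasi-likelihood test) and *Elovl6* (0.40 ± 0.15, adjusted p = 0.0421). Called in the low clones alone were *Idi1* (log2 fold change 1.28 ± 0.47, adjusted p = 0.0378), *Sqle*, the squalene epoxidase (log2 fold change 0.67 ± 0.21, adjusted p = 0.0152), *Scap* (log2 fold change 1.01 ± 0.26, adjusted p = 0.00312), *Scd2* (log2 fold change 0.53 ± 0.20, adjusted p = 0.0459) and, downwards, *Lss*, the lanosterol synthase (-0.74 ± 0.27, edgeR adjusted p = 0.0357). *Ebp* held 22.3 and 19.1 CPM in untreated cells and 30.5 to 55.8 CPM (median 43.2) in the 9 high clones. *Sqle* held 74.5 and 72.3 CPM in untreated cells and 132 CPM in T41S, 109 in S45C and 113 in T41N. *Lss* held 62.5 and 63.8 CPM in untreated cells and 47.4 CPM in T41S, 36.2 in S45C and 22.2 in T41N. These ranges did not overlap for any of the 3 genes, which were picked because they were called. Against 2 untreated libraries such a separation says little, and its share over all genes was not counted. Of the 7 genes, the direct test of high against low clones called *Elovl6*, *Scap* and *Scd2*. *Idi1*, at 3.26 and 4.25 CPM in untreated cells and 7.91 to 12.1 CPM in the low clones, rests on 4 to 14 counts in each of these low clones and 6 and 4 counts in the untreated libraries. *Scd2* was at 0.04, adjusted p = 0.875 without the T41S clone. The calls were lost under 11 of 16 alternatives for *Elovl6*, 7 of 10 for *Scd2*, 6 of 8 for *Idi1*, 4 of 10 for *Sqle* (among them without either untreated library and without T41S) and 4 of 10 for *Lss* (without either untreated library, without S45C and without T41N). Without 0 µM replicate 1, members called fell to 3 in the high clones (*Ebp*, *Fasn*, *Insig1*), and in the low clones to 4 (*Srebf2*, *Fasn*, *Pmvk*, *Insig1*); the lost members kept their directions, with log2 fold changes of -0.74 for *Mvd*, -0.51 for *Srebf2*, -0.42 for *Pmvk*, -0.56 for *Scd1* and 0.26 for *Elovl6* in the high clones. The mitochondrial share of the clones lay above that of both untreated libraries. Markers also differed from untreated cells. In the high clones 4 of 8 pluripotency markers were higher and 1 lower, 5 of 7 tested primitive endoderm and 2 of 4 tested streak markers were higher, and 2 of 4 tested neural and 2 of 2 tested fibroblast markers were lower. In the low clones 3 of 8 pluripotency markers were lower, and 1 of 7 primitive endoderm, 2 of 4 streak, 2 of 4 neural and 1 of 2 fibroblast markers were higher. The part of the mitochondrial share and of these markers in the result was not tested.

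**Figure D3:**
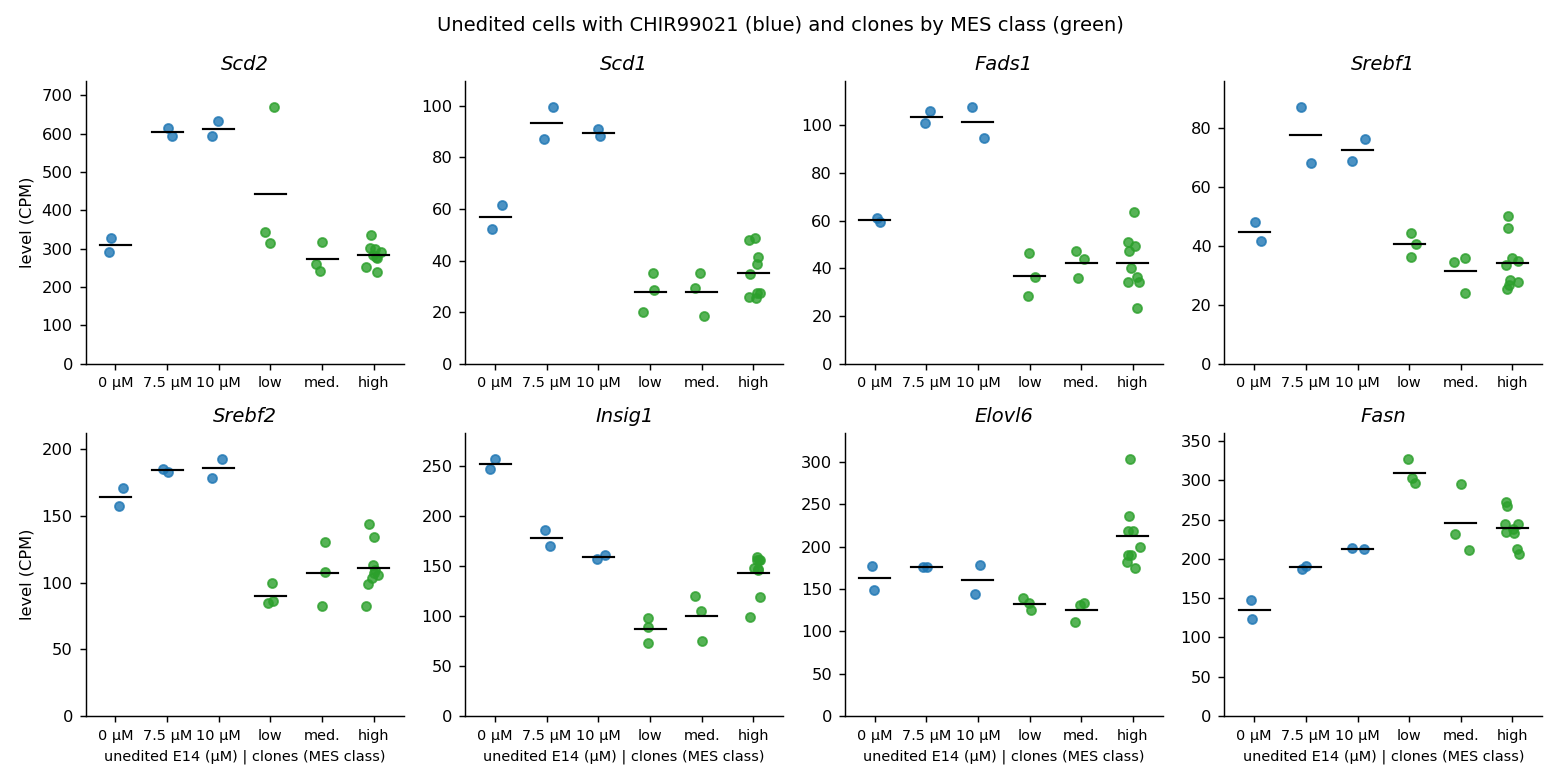
Level in CPM (vertical axes from 0) of 8 members in unedited E14 cells at 0, 7.5 and 10 µM CHIR99021 (blue) and in the low, medium and high clones (green), 1 point per library, with a black line at the mean of each group. Scd1, Fads1 and Srebf1 lie lower in all clones than in all libraries at 7.5 and 10 µM, and in Scd2 only the T41S clone at 671 CPM reaches the level of the inhibitor.

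Strong mutations and strong GSK3 inhibition were compared directly, the 9 high clones against the 4 libraries at 7.5 and 10 µM, without the untreated libraries. Of 31 members, 15 were lower in the high clones and 3 higher (18 called, 58.1%), against 47% of all 11375 genes, 23.4% higher and 23.7% lower. The lower members included all 3 tested desaturases, both SREBP genes, *Stard4*, 5 of the 11 genes from squalene to cholesterol and 3 of the 6 mevalonate genes. The median log2 fold change of the members was -0.38, against 0.01 over all genes tested (edgeR quasi-likelihood test). Of the 5 β-catenin targets used as a check of the treatment, 3 were also lower in the high clones and 0 higher, with a median of -0.96.

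*Scd1* held 87.1 and 99.7 CPM at 7.5 µM and 88.2 and 91.1 CPM at 10 µM, against 25.6 to 48.6 CPM (median 34.8) in the 9 high clones. *Scd1* differed by -1.39 ± 0.16 (edgeR adjusted p = 7.40e-08). *Fads1* held 101 and 106 CPM at 7.5 µM and 94.7 and 108 CPM at 10 µM, against 23.3 to 63.5 CPM (median 39.9) in the 9 high clones. *Fads1* differed by -1.29 ± 0.16 (edgeR adjusted p = 1.72e-07). *Scd2* held 595 and 614 CPM at 7.5 µM and 594 and 633 CPM at 10 µM, against 240.1 to 337 CPM (median 284) in the 9 high clones. *Scd2* differed by -1.12 ± 0.13 (edgeR adjusted p = 3.77e-08). None of these ranges overlapped, and all 3 genes passed under every alternative tried. How many of all genes separate the high clones from these libraries in this way was not counted, and 47% of all genes were called here.

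*Srebf1* held 87.1 and 68.00 CPM at 7.5 µM and 68.6 and 76.1 CPM at 10 µM, against 25.2 to 50.2 CPM (median 33.6) in the 9 high clones. *Srebf1* differed by -1.16 ± 0.16 (edgeR adjusted p = 8.33e-07). *Srebf2* held 185 and 183 CPM at 7.5 µM and 193 and 178 CPM at 10 µM, against 82.2 to 144 CPM (median 107) in the 9 high clones. *Srebf2* differed by -0.75 ± 0.12 (edgeR adjusted p = 5.54e-06). Again the groups did not overlap, and both genes passed under every alternative tried. *Insig2* held 39.2 and 49.6 CPM at 7.5 µM and 29.4 and 36.1 CPM at 10 µM, against 24.8 to 38.5 CPM (median 29.4) in the 9 high clones (log2 fold change -0.38 ± 0.15, adjusted p = 0.0344), with overlapping ranges. *Insig1* and *Scap* did not pass (-0.25 ± 0.12, adjusted p = 0.081, and -0.14 ± 0.16, adjusted p = 0.512).

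In the sterol branch, *Sc5d* held 47.9 and 39.8 CPM at 7.5 µM and 39.2 and 35.4 CPM at 10 µM, against 12.6 to 23.2 CPM (median 18.6) in the 9 high clones. *Sc5d* differed by -1.18 ± 0.17 (edgeR adjusted p = 2.58e-06). *Stard4* held 53.7 and 57.6 CPM at 7.5 µM and 71.9 and 64.02 CPM at 10 µM, against 20.2 to 43.9 CPM (median 35.2) in the 9 high clones. *Stard4* differed by -0.84 ± 0.18 (edgeR adjusted p = 3.07e-04). *Mvd* held 87.1 and 66.8 CPM at 7.5 µM and 84.9 and 91.9 CPM at 10 µM, against 28.9 to 66.7 CPM (median 47.6) in the 9 high clones. *Mvd* differed by -0.77 ± 0.18 (edgeR adjusted p = 8.03e-04). All 3 genes, and *Dhcr7*, the last reductase before cholesterol (60.2 and 74.9 CPM at 7.5 µM and 58.8 and 64.02 CPM at 10 µM, against 28.9 to 58.7 CPM (median 40.1) in the 9 high clones), were lower in every high clone than in the 4 treated libraries.

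Smaller differences with overlapping ranges were called for 5 further sterol genes, as log2 fold changes with SE: *Cyp51* -0.67 ± 0.19, *Tm7sf2* -0.69 ± 0.26, *Pmvk* -0.48 ± 0.14, *Msmo1* -0.47 ± 0.15 and *Hmgcs1* -0.41 ± 0.15. *Pmvk* held 124 and 126 CPM at 7.5 µM and 114 and 138 CPM at 10 µM, against 66.1 to 115 CPM (median 96.02) in the 9 high clones. *Tm7sf2*, a sterol reductase, held 18.9 and 13.8 CPM at 7.5 µM and 9.80 and 15.1 CPM at 10 µM, against 5.11 to 16.8 CPM (median 8.99) in the 9 high clones. The highest clones reached the lowest treated libraries. *Cyp51* is the lanosterol demethylase, which held 63.1 and 90.5 CPM at 7.5 µM and 88.2 and 75.3 CPM at 10 µM, against 27.1 to 64.7 CPM (median 54.3) in the 9 high clones. *Msmo1*, a sterol C4-methyl oxidase, held 175 and 172 CPM at 7.5 µM and 160.0 and 189 CPM at 10 µM, against 85.9 to 176 CPM (median 133) in the 9 high clones. *Hmgcs1* held 244 and 254 CPM at 7.5 µM and 209 and 231 CPM at 10 µM, against 113 to 226 CPM (median 187) in the 9 high clones. In these 3 the groups overlapped likewise. Without 10 µM replicate 2 the calls of *Hmgcs1*, *Pmvk*, *Msmo1*, *Tm7sf2*, *Insig2*, *Fdft1* and *Elovl6* were lost and 11 members remained. The differences of *Fdft1* and *Elovl6* were then larger (0.51 and 0.40), those of *Hmgcs1*, *Pmvk* and *Msmo1* were -0.37, -0.39 and -0.39, and those of *Tm7sf2* and *Insig2* were -0.45 and -0.27. The 13 members that did not pass ran from -0.48 ± 0.21 for *Fdps* to 0.30 ± 0.19 for *Ebp*.

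The 3 members that were higher in the high clones lay outside the desaturase branch. *Acly* held 142 and 172 CPM at 7.5 µM and 137 and 171 CPM at 10 µM, against 181 to 255 CPM (median 198) in the 9 high clones (log2 fold change 0.33 ± 0.11, adjusted p = 0.011, edgeR quasi-likelihood test), without overlap. *Elovl6* held 176 and 176 CPM at 7.5 µM and 144 and 178 CPM at 10 µM, against 175 to 304 CPM (median 199) in the 9 high clones. *Elovl6* differed by 0.30 ± 0.12 (edgeR adjusted p = 0.0364). *Fdft1* held 66.7 and 68.00 CPM at 7.5 µM and 68.6 and 81.3 CPM at 10 µM, against 68.5 to 126 CPM (median 97.8) in the 9 high clones. *Fdft1* differed by 0.42 ± 0.16 (edgeR adjusted p = 0.0326). The ranges of *Elovl6* met at the upper treated libraries, and those of *Fdft1* overlapped; *Fdft1* shares 774 of 4227 exonic bases with the opposite strand of *Ctsb*. *Fasn*, which rose with the dose, did not differ beyond the threshold (0.23 ± 0.10, adjusted p = 0.0521). The clones differ from the treated cells in mitochondrial share and in markers: pluripotency markers summed to 3388 to 3655 CPM at 7.5 and 10 µM and 4183 to 5471 CPM in the high clones, and primitive streak markers to 131 to 163 and 28.7 to 95.1 CPM. Higher in the high clones were 7 of 8 pluripotency markers, 3 of 7 tested primitive endoderm markers (*Gata6*, *Dab2* and *Sox17*), *Eomes* of the streak and 2 of 4 tested neural markers, and lower were 3 of 4 tested streak, 1 neural and 2 of 2 tested fibroblast markers. Their part in the differences was not tested. The calls were lost under 9 of 18 alternatives for *Elovl6*, 8 of 18 for *Fdft1* and 7 of 18 for *Insig2*.

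**Figure D4:**
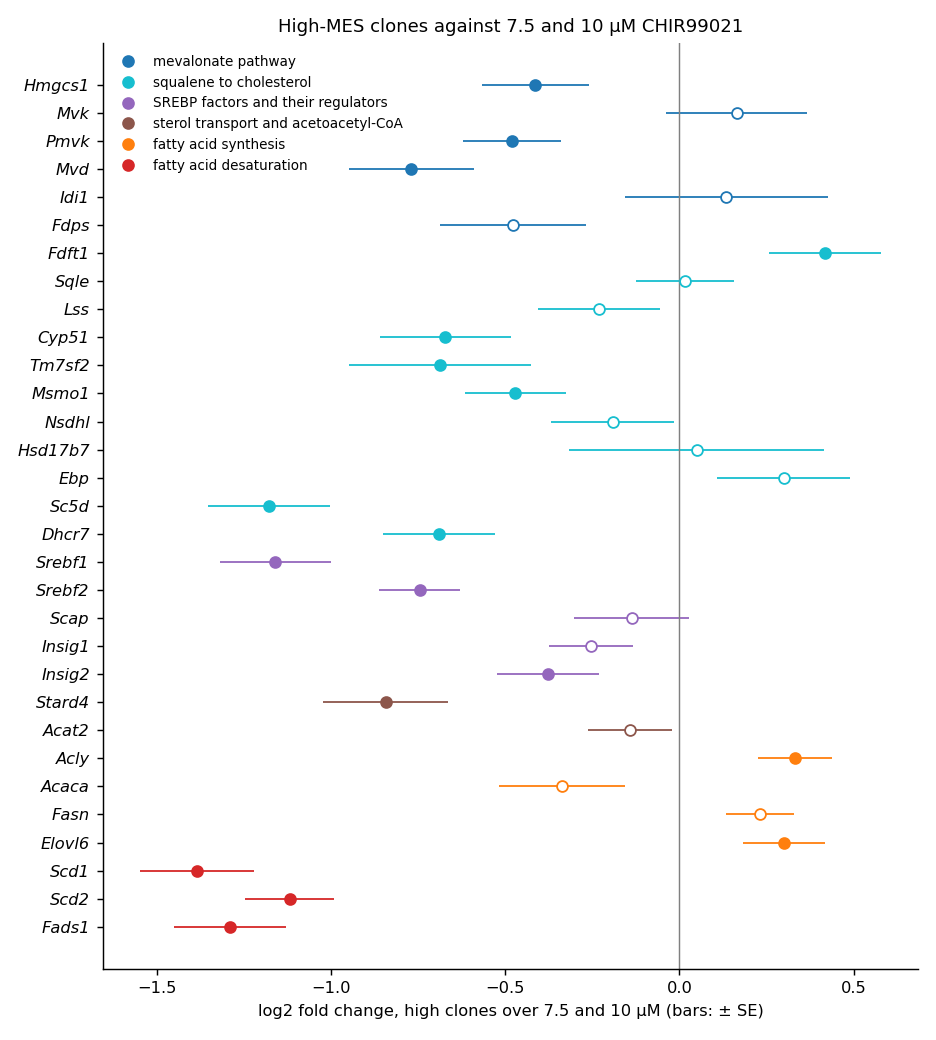
Log2 fold change of the 9 high clones over the 4 libraries at 7.5 and 10 µM CHIR99021 (horizontal axis, bars ± SE) for the 31 tested members, coloured by role and ordered along the pathway. Filled points passed an adjusted p of 0.05; the 3 desaturases, Sc5d and Srebf1 lie below -1 and Acly, Elovl6 and Fdft1 are the filled points above 0.

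Summed levels set the branches side by side. The summed level of *Scd1*, *Scd2*, *Fads1* and *Fads2* was 417 and 443 CPM in untreated cells, 777 to 835 CPM at 7.5 and 10 µM, and 300.3 to 415 CPM (median 366) in the high clones. Summed mevalonate genes stood at 475 and 503 CPM in untreated cells, 467 to 529 CPM at 7.5 and 10 µM, and 296 to 468 CPM (median 385) in the high clones. Summed fatty acid synthesis genes were higher in the clones, at 616 to 735 CPM in the high clones against 521 and 532 CPM in untreated cells and 532 to 589.7 CPM at 7.5 and 10 µM. The genes did not rise together. Log2 fold changes of high clones over untreated cells were 0.81 ± 0.13 for *Fasn* and 0.40 ± 0.15 for *Elovl6*. They were 0.03 ± 0.13 for *Acly* and -0.32 ± 0.22 for *Acaca*, which were not called. The sums are descriptions without a test, and the untreated libraries serve as a reference for both the inhibitor and the clones. *Mvk*, *Fdps*, *Nsdhl*, *Hsd17b7*, *Acat2* and *Fads2* were called in none of the 6 comparisons by edgeR. Their levels over the 25 libraries ran from 0 to 5.80 CPM for *Fads2* and from 1.33 to 21.5 CPM for *Hsd17b7*, both near the limit of detection, and from 79.04 to 146 CPM for *Acat2*, while the other three lay between 13.2 and 52.3 CPM.

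Clones that share a mutation gave the spread between clones. Over the 4 mutations with 2 clones, clones of 1 mutation differed in log2 (CPM + 1) with an SD of 0.12 for *Fasn*, 0.14 for *Elovl6*, 0.17 for *Scd2*, 0.26 for *Insig1* and 0.38 for *Fads1*, against 0.21, 0.41, 0.35, 0.39 and 0.36 over all 15 clones. For *Fads1* the spread within a mutation was as wide as that over all clones, and for *Hmgcs1*, *Mvk*, *Idi1* and *Cyp51* nearly as wide. The genes listed with values do not stand for all members.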

How the data were processed

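Bulk 3′ RNA-seq (mcSCRB-seq) was measured in 10 libraries of unedited E14 cells and 15 *Ctnnb1*-mutant clones. The deposited values are raw counts per gene. The authors trimmed adapters with Cutadapt, extracted molecular identifiers with UMI-tools, filtered ribosomal RNA reads with SortMeRNA and aligned with STAR to mm10. They then removed duplicates with UMI-tools and with Picard and counted with featureCounts 2.0.1. The submitters' processing notes also name FastQC 0.73 and bedtools 2.30.0. The annotation release and the strand setting were not given in the sources used here. Symbols and gene coordinates came from GENCODE M21 (GRCm38), which held 48058 of 48440 identifiers, and promoter windows from RefSeq.

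Levels (CPM) are a gene's counts over the library's total, scaled to 1000000, with no correction for transcript length. Whether ranges of levels overlapped was read for the members only, so no share over all genes stands beside it. Tests used edgeR 4.0.16 in R 4.3.3 (TMM factors, filterByExpr at its minimum of 10 counts, the quasi-likelihood test, Benjamini-Hochberg adjustment over all genes tested, threshold 0.05), and errors of fitted changes are standard errors. The dose in µM was fitted over the 10 CHIR99021 libraries, and MES or its 3 classes over the 15 clones. Clones were set against unedited cells in 1 fit of all 25 libraries in 8 groups. The common biological coefficient of variation, edgeR's measure of spread, was 0.145 in that fit. It was 0.096 in the dose fit and 0.161 in the fit of clone classes. The joint fit thus takes the clones' spread as smaller than their own fit does. MES of each mutation came from the study and served only as a covariate.

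The scripts were checked on simulated data. The members and lists were chosen with earlier results of these data known. Values were given per library for members called in at least 1 comparison, in the groups where they were called, and for the SREBP genes (for groups over 5 libraries as lowest, median and highest), and by range or change for the others. Each result was recomputed with DESeq2 1.42.0, with RLE factors, without the filter, after thinning all libraries to the depth of the smallest, and with other forms of dose and MES, codon as a factor, counts summed per mutation, a block for the replicate number or the mitochondrial share, the libraries with the higher mitochondrial share, only the groups compared, and leaving out each library in turn. The dose fit without both 0 µM libraries and the MES fit without the low clones were added after the data were seen.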

Additional observations from a re-analysis of the deposited data

Results flagged for a closer look

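In the group of 9 high clones, a single library stood far from the others for 2 members. *Acly* was at 255 CPM in T41I clone A6, against 181 to 210.1 CPM in the other 8 high clones and a median of 198 CPM. *Elovl6* was at 304 CPM in S37Y clone A5, against 175 to 236 CPM in the others and a median of 199 CPM. The gap to the nearest clone was 0.604 and 0.523 of the group's whole range, above Dixon's critical value for 9 samples. Chance marks about 1 in 20 groups in this way, and 31 members were examined, so neither value was followed further.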

How the results depend on the processing

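The values below are numbers of genes with an adjusted p under 0.05 in edgeR. Counts thinned to the smallest library left 288 genes and 2 members (*Scd2* and *Srebf1*) in the dose trend, 1386 and 2 in the MES trend, 1888 and 7 between high and low clones, 1454 genes and 4 members between high clones and untreated cells, 1683 and 8 between low clones and untreated cells, and 2705 and 16 between high clones and 7.5 and 10 µM, so depth limits the number of calls. Of the settings added after the data were seen, the dose trend without both 0 µM libraries left 121 genes and 1 member (*Scd2*), and the MES trend without the low clones left 23 genes and 0 members, with the *Scd2* slope turned to 0.041. Leaving out each library in turn gave, for the dose trend, 527 to 1325 genes and 4 to 9 members, for the MES trend 1199 to 2388 and 3 to 6, for high against low clones 1653 to 3184 and 4 to 9, for high clones against untreated cells 1626 to 4109 and 3 to 12, for low clones against untreated cells 1998 to 3557 and 4 to 10, and for high clones against 7.5 and 10 µM 3177 to 5531 and 11 to 19. The lowest counts came without 0 µM replicate 1 (dose trend and both comparisons with untreated cells), without T41S clone H8 (both comparisons of clones) or without 10 µM replicate 2 (the last), and the most members against untreated cells (12) came without S37F clone H2. Between libraries of the same replicate number, deviations from the dose means correlated between -0.137 and 0.119. Correlations this weak cannot decide whether the number pairs the libraries. They were -0.121, -0.12 and -0.137 between 0 µM and 2.5, 5 and 10 µM. Among 2.5, 5 and 10 µM they were 0.116, 0.119 and 0.093. The lower mitochondrial share fell on replicate 2 at 0 µM and on replicate 1 at 2.5, 5 and 10 µM. Its part in these correlations was not tested. With the replicate block the dose trend had 1140 genes and the MES trend 2227, and of the called members *Scd2* lost its MES call (slope -0.24, against -0.27 without the block, adjusted p = 0.0583). Over all results and settings, 3002 values stayed on their side of the threshold, 149 no longer passed it and 41 newly passed it. A further 1 reversed its direction where at least 1 of the 2 fits compared had passed. Values that passed in neither fit could change direction and were still counted among the 3002.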
